A study of Homo sapiens with 24 samples.

Results

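Interleukin-6 and LIF signalling was followed through 9 genes: the ligands IL6, LIF and IL11, the receptor chains IL6R, IL6ST, LIFR and OSMR, the transcription factor STAT3 and the feedback inhibitor SOCS3. They were chosen by name, with earlier results of these data known. Matched by gene symbol and measured by 1 probe set each, all 9 stood among the 18417 genes with a single-symbol probe set. RNA came from a pair of human inflammatory breast cancer lines, SUM149PT (p53 M237I) and SUM190PT (p53 Q317X), both given as ER(-) by the labels. For 48 h each line received 10 nM 17β-estradiol with CG-1521 (the combination), CG-1521 alone, 10 nM 17β-estradiol alone, or the ethanol and DMSO vehicle, with 3 arrays from independent experiments in each of the 8 groups. CG-1521, which the series title calls a histone deacetylase inhibitor, was given at 7.5 µM to SUM149PT in medium with serum and at 5 µM to SUM190PT in medium without serum. Line, dose and serum therefore changed together, and their parts in a difference between the lines cannot be told apart. Both media held insulin and hydrocortisone, a glucocorticoid, in every group including vehicle.

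Cytokines of the interleukin-6 family signal through a shared receptor chain, gp130, encoded by IL6ST. Interleukin-6 and interleukin-11 first bind receptor chains of their own, whereas LIF pairs gp130 with LIFR and oncostatin M pairs it with LIFR or OSMR. Janus kinases bound to the receptors then phosphorylate STAT3, which enters the nucleus and switches on targets that include SOCS3, an inhibitor that binds gp130 and the kinases and ends the signal. In the mouse mammary gland LIF and STAT3 are known for driving the cell death and acute-phase gene expression that follow weaning.

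All values are log2 expression per probe set, and a gene passed a comparison at an adjusted p under 0.05 (limma, Benjamini-Hochberg over 18417 genes). Levels of different genes are not compared, since each probe set has its own scale. Arrays of a group correlated at 0.9946 to 0.996 in SUM149PT and at 0.9807 to 0.9957 in SUM190PT, over all genes. In SUM190PT replicate 3 of vehicle and of estradiol stood apart, with mean correlations of 0.9826 and 0.9843 to their groups, and leaving out both changed no call on the 9 genes. The mean of 5 epithelial markers ranged over 11.12 to 11.22 on SUM149PT arrays and 11.35 to 11.76 on SUM190PT arrays. For 4 leukocyte markers it ranged over 4.29 to 4.54 on SUM149PT arrays and 4.01 to 4.40 on SUM190PT arrays, and that of 7 fibroblast markers was 4.78 to 5.05 in SUM149PT and 4.59 to 4.93 in SUM190PT. Since RNA was pooled over a culture, more cells with a transcript and more transcript per cell cannot be told apart.

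CG-1521 changed most of these genes in both lines, and the direction depended on the gene. In SUM149PT 7 of the 9 passed against vehicle, 5 higher and 2 lower, where 34.3% of all genes passed, 14.4% upward and 19.9% downward. The median difference of the 9 was 0.40, against −0.002 over all genes. In SUM190PT 6 of the 9 passed, all 6 higher, where 16.6% of all genes passed, 8.32% upward and 8.26% downward. The median of the 9 there was 0.93, against −0.048 over all genes. Without the arrays that stood apart, the 6 differences in SUM190PT were 2.26 for LIF, 1.98 for OSMR, 1.70 for IL6R, 0.99 for IL6, 0.88 for LIFR and 0.69 for IL6ST. LIF, IL6R, IL6ST and OSMR rose in both lines, IL11 rose in SUM149PT and IL6 in SUM190PT, and LIFR fell in SUM149PT and rose in SUM190PT. SOCS3 passed in neither line, and STAT3 fell in SUM149PT.

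**Figure D1:**
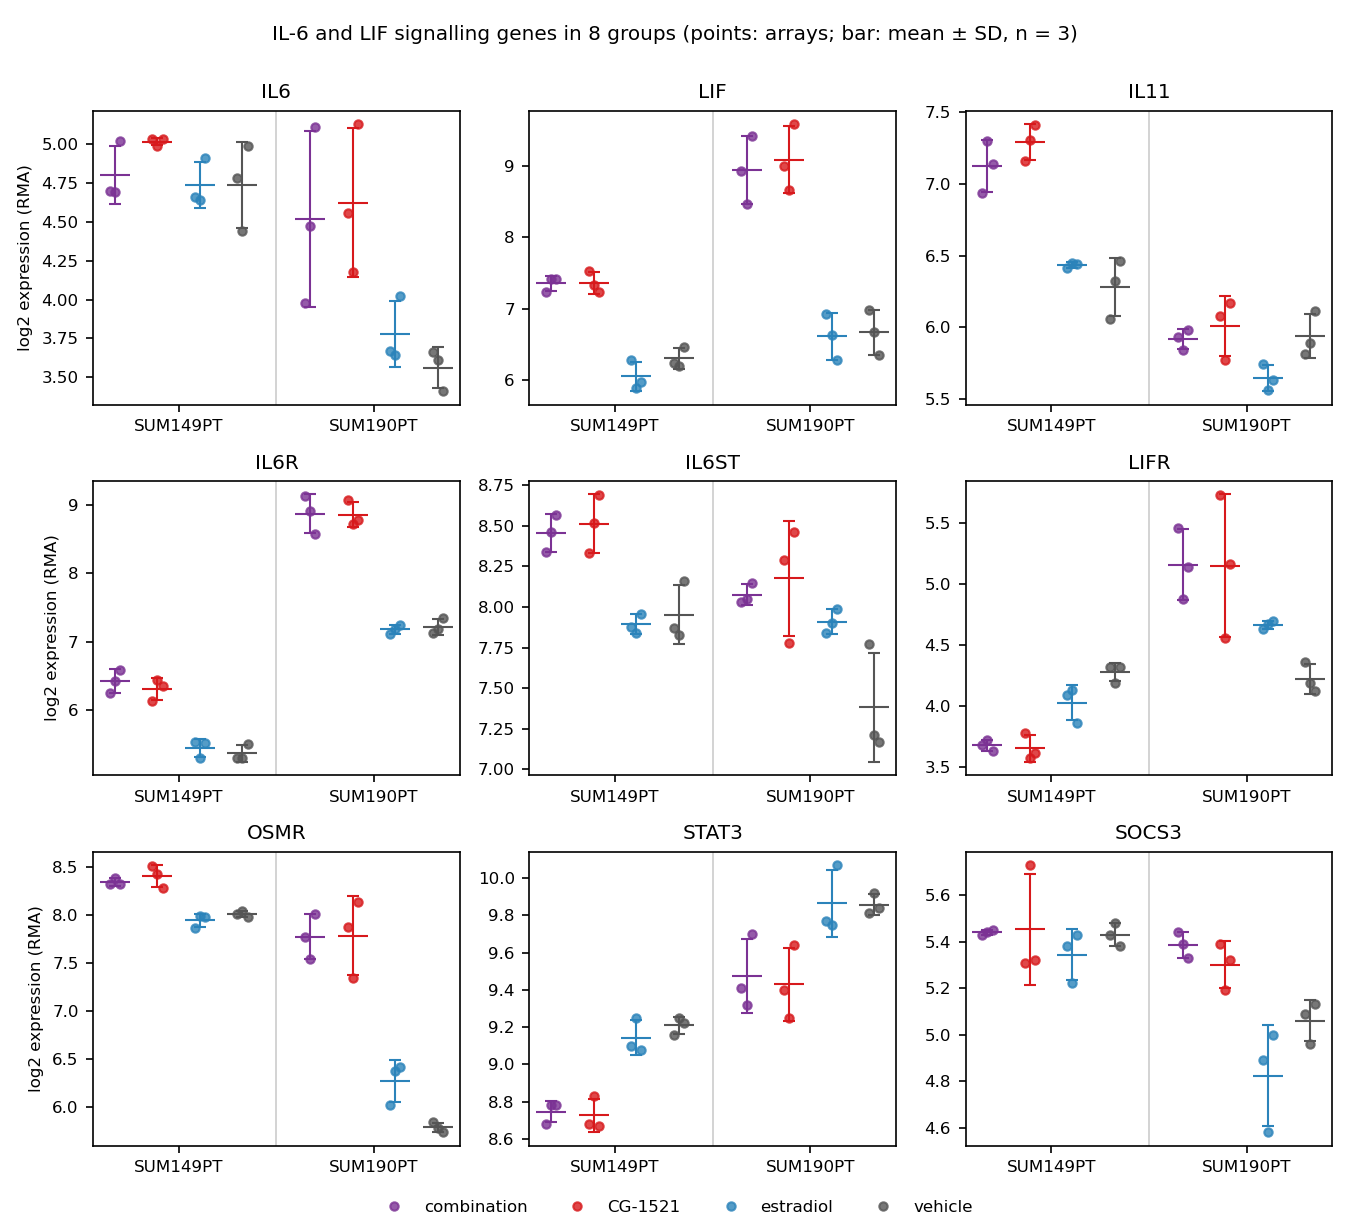
Log2 expression (RMA, y axis) of the 9 genes on all 24 arrays, with the combination, CG-1521, estradiol and vehicle groups drawn from left to right within each line; points are arrays and bars are means ± SD of 3 arrays. LIF, IL6R and OSMR form separate bands with and without CG-1521 in each line, whereas SOCS3 in SUM149PT stays between 5.22 and 5.73.

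Promoter sequence was available from RefSeq (GRCh38.p14) for 8 of the 9 genes, in 11 windows of 250 bases that end just before an annotated start. The windows were searched on both strands for the STAT site TTCNNNGAA, the AP-1 site TGANTCA, the cyclic AMP response element TGACGTCA and the NF-kB site. The windows of 3 genes are shown, each with a different motif. A match is a description of the letters, not a bound site. Capitals mark the motif: the NF-kB match at 73 to 64 bases before the start of IL6 (chr7:22726950-22727199, plus strand), the AP-1 match at 96 to 90 bases before that of IL11 (chr19:55370464-55370713, minus strand) and the STAT match at 165 to 157 bases before the first annotated start of LIFR (chr5:38595406-38595655, minus strand).
IL6: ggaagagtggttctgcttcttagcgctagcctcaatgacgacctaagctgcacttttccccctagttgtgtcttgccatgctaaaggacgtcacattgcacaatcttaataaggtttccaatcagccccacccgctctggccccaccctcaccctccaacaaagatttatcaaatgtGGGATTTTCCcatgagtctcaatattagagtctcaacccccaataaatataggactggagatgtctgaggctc
IL11: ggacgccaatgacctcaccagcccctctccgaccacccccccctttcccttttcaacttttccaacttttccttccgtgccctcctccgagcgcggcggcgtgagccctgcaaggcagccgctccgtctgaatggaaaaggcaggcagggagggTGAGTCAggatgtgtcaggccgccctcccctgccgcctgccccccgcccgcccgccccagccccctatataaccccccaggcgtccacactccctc
LIFR: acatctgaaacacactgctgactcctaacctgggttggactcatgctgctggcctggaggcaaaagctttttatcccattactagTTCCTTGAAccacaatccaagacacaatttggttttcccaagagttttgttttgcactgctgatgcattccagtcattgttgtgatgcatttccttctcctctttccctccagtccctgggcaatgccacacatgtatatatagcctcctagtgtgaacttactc
A second start of LIFR held another STAT match, TTCATCGAA, at 182 to 174 bases, and IL6ST held an NF-kB match, GGAGCGCCCC, at 53 to 44 bases. The windows of IL6R, OSMR, STAT3, SOCS3 and the third LIFR start held none of the 4 motifs, and no window held the cyclic AMP element. Over all 35116 windows of this length the STAT site was found in 6.57%, the AP-1 site in 6.57%, the cyclic AMP element in 1.65% and the NF-kB site in 9.96%.

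LIF, the cytokine that binds LIFR and gp130, was higher with CG-1521 in both lines and had the largest rise of the 9 genes in SUM190PT. In SUM190PT, LIF lay at 9.0, 8.66 and 9.58 with CG-1521, against 6.98, 6.67 and 6.36 with vehicle. With estradiol present it lay at 8.93, 8.46 and 9.41 in the combination, against 6.93, 6.64 and 6.28 in estradiol alone. Every array with the drug was above every array without it. The difference to vehicle was 2.41 (SE 0.272, 5.32-fold, limma adjusted p = 0.000149), and that to estradiol was 2.32 (4.98-fold, adjusted p = 0.000153). Without the arrays that stood apart the values were 2.26 and 2.15. In SUM149PT, LIF stood at 7.53, 7.33 and 7.23 with CG-1521, against 6.25, 6.20 and 6.47 with vehicle. The combination gave 7.23, 7.42 and 7.41, against 6.29, 5.90 and 5.98 in estradiol alone. Again no array with the drug reached down to those without it, and the differences were 1.06 (SE 0.113, 2.08-fold, adjusted p = 2.01e-06) and 1.30 (2.46-fold, adjusted p = 2.22e-07). Over the 8 groups LIF fell into 3 tiers: the SUM190PT drug groups, then the SUM149PT drug groups, then the 4 groups without CG-1521, which overlapped along their order. The pair of drug groups in each line overlapped as well.

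IL11, a cytokine that reaches gp130 through its own receptor IL11RA, was higher with CG-1521 in SUM149PT. Its values there were 7.16, 7.31 and 7.41 with CG-1521, against 6.06, 6.32 and 6.46 with vehicle. The combination gave 6.94, 7.30 and 7.14, and estradiol alone gave 6.41, 6.45 and 6.44. The drug arrays lay above the others in both comparisons, by 1.01 (SE 0.112, 2.02-fold, adjusted p = 2.83e-06) and 0.70 (SE 0.112, 1.62-fold, adjusted p = 0.000118). SUM190PT gave 6.08, 5.77 and 6.17 with CG-1521, against 5.81, 5.89 and 6.11 with vehicle. These ranges overlapped, and the difference was 0.072 (95% interval −0.20 to 0.34, adjusted p = 0.736). With estradiol present the SUM190PT arrays stood at 5.93, 5.84 and 5.98 in the combination, against 5.74, 5.56 and 5.63 in estradiol alone. Those did not overlap, yet the difference of 0.27 did not pass (adjusted p = 0.124). In the order of the 8 groups both SUM149PT drug groups stood clear at the top and SUM190PT estradiol at the bottom, and the 5 between overlapped.

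IL6, the founding ligand of the family, rose with CG-1521 in SUM190PT, with wide spread between arrays. SUM190PT gave 4.56, 4.18 and 5.13 with CG-1521, against 3.66, 3.61 and 3.41 with vehicle. All 3 drug arrays were above the vehicle arrays, by 1.06 (SE 0.267, 2.09-fold, adjusted p = 0.0169). The call rested on single arrays, since the adjusted p was 0.0505 without the first CG-1521 array (difference 1.09) and 0.0704 without the third (0.81). In the combination the values were 3.98, 4.47 and 5.11, against 3.67, 3.64 and 4.02 in estradiol alone. The first combination array lay below the third estradiol array, and the difference of 0.74 did not pass (adjusted p = 0.0583). SUM149PT gave 5.03, 4.99 and 5.03 with CG-1521, against 4.78, 4.44 and 4.99 with vehicle. The vehicle arrays reached up to the drug arrays, and the difference of 0.28 did not pass (SE 0.128, adjusted p = 0.11). With estradiol present IL6 stood at 4.70, 4.69 and 5.02 in the combination and at 4.66, 4.64 and 4.91 in estradiol alone, a difference of 0.065 (95% interval −0.21 to 0.34, adjusted p = 0.734). Along the order of the 8 groups every group overlapped the next one down.

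IL6R, the binding chain for interleukin-6, had the smallest SE of the 6 genes that rose in SUM190PT. In that line it stood at 9.07, 8.72 and 8.79 with CG-1521, against 7.12, 7.19 and 7.35 with vehicle. The combination gave 9.14, 8.91 and 8.58, against 7.11, 7.18 and 7.25 in estradiol alone. All 6 drug arrays lay above all 6 others, by 1.64 (SE 0.145, 3.11-fold, adjusted p = 3.91e-05) and 1.70 (3.24-fold, adjusted p = 2.15e-05). In SUM149PT the level was lower throughout, at 6.13, 6.44 and 6.35 with CG-1521, against 5.29, 5.29 and 5.50 with vehicle. The combination gave 6.24, 6.42 and 6.59, against 5.52, 5.29 and 5.51 in estradiol alone. The groups were again separate, with differences of 0.95 (SE 0.110, 1.93-fold, adjusted p = 5.01e-06) and 0.98 (1.97-fold, adjusted p = 3.44e-06). The order of the 8 groups had 4 levels, SUM190PT with drug, SUM190PT without, SUM149PT with drug and SUM149PT without, and the groups within a level overlapped.

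IL6ST, the gp130 chain shared by all these ligands, was higher with CG-1521 given alone in both lines. SUM149PT gave 8.33, 8.52 and 8.69 with CG-1521, against 7.87, 7.83 and 8.16 with vehicle. It gave 8.34, 8.46 and 8.57 in the combination, against 7.88, 7.84 and 7.96 in estradiol alone. The drug arrays lay above the others, and both differences were 0.56 (1.48-fold, adjusted p = 0.000575 and 0.000567). In SUM190PT the gene stood at 8.29, 7.78 and 8.46 with CG-1521, against 7.77, 7.21 and 7.17 with vehicle, so that the lowest drug array and the highest vehicle array nearly met. The difference was 0.79 (SE 0.181, 1.73-fold, adjusted p = 0.0104). The combination gave 8.03, 8.05 and 8.15, against 7.84, 7.90 and 7.99 in estradiol alone. Here the difference was 0.16 (95% interval −0.23 to 0.56, adjusted p = 0.519), and the estradiol arrays themselves were above all 3 vehicle arrays. In the order of the 8 groups SUM190PT vehicle stood alone at the bottom and each of the other groups overlapped its neighbour.

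LIFR, the chain that binds LIF, moved in opposite directions in the lines. SUM149PT gave 3.78, 3.57 and 3.61 with CG-1521, against 4.32, 4.19 and 4.32 with vehicle. The combination gave 3.68, 3.72 and 3.63, against 4.09, 4.13 and 3.86 in estradiol alone. Every drug array was below every array without it, and the differences were −0.62 (SE 0.089, 1.54-fold lower, adjusted p = 4.08e-05) and −0.35 (SE 0.089, 1.28-fold lower, adjusted p = 0.00518). The second of these did not pass with all 24 arrays in one fit (adjusted p = 0.169). SUM190PT gave 5.73, 4.56 and 5.17 with CG-1521, against 4.36, 4.19 and 4.12 with vehicle. All 3 drug arrays lay above the vehicle arrays, by 0.93 (SE 0.231, 1.9-fold, adjusted p = 0.0163). That call was lost without the first CG-1521 array (0.64, adjusted p = 0.0643) and without the second vehicle array (0.91, adjusted p = 0.0542). The combination gave 5.46, 4.88 and 5.14, against 4.63, 4.67 and 4.70 in estradiol alone, and this difference of 0.49 did not pass (SE 0.231, adjusted p = 0.129) although the arrays did not overlap. The 3 SUM190PT groups given estradiol or drug were the highest of the 8 and the SUM149PT drug groups the lowest, and the vehicle groups and SUM149PT estradiol overlapped between them.

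OSMR, the receptor chain for oncostatin M, had a large rise in SUM190PT and a small one in SUM149PT. SUM190PT gave 7.88, 7.34 and 8.14 with CG-1521, against 5.84, 5.78 and 5.74 with vehicle. The combination gave 7.77, 7.54 and 8.01, against 6.02, 6.37 and 6.42 in estradiol alone. Every drug array was well above the others, and the differences were 2.01 (SE 0.188, 4.02-fold, adjusted p = 5.56e-05) and 1.50 (2.84-fold, adjusted p = 0.000216). SUM149PT gave 8.51, 8.43 and 8.28 with CG-1521, against 8.01, 8.04 and 7.98 with vehicle. In that line the combination stood at 8.32, 8.39 and 8.32, against 7.87, 7.99 and 7.98 in estradiol alone. The drug arrays were above the others, and both differences were 0.40 (SE 0.078, 1.32-fold, adjusted p = 0.000736 and 0.000724). The SUM190PT CG-1521 arrays, which ran up to 8.14, overlapped the SUM149PT groups without drug, whereas the SUM190PT estradiol and vehicle groups lay below all others and apart from each other.

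STAT3, the transcription factor of the pathway, fell with CG-1521 in SUM149PT. SUM149PT gave 8.68, 8.83 and 8.67 with CG-1521, against 9.16, 9.25 and 9.22 with vehicle. The combination gave 8.68, 8.78 and 8.78, against 9.10, 9.25 and 9.08 in estradiol alone. All drug arrays lay below the others, by −0.48 (SE 0.079, 1.39-fold lower, adjusted p = 0.000153) and −0.39 (SE 0.079, 1.31-fold lower, adjusted p = 0.000936). After quantile normalization the second value was −0.26 (adjusted p = 0.0152). SUM190PT gave 9.40, 9.25 and 9.64 with CG-1521, against 9.81, 9.92 and 9.84 with vehicle, and 9.41, 9.32 and 9.70 in the combination, against 9.77, 9.75 and 10.07 in estradiol alone. The drug arrays were below the others here too, but the differences of −0.43 (SE 0.137, adjusted p = 0.0503) and −0.38 (adjusted p = 0.0562) missed the threshold. The first passed under 8 of the other settings, with adjusted p of 0.00581 to 0.0498, and the second under 6, with adjusted p of 0.00931 to 0.048. The SUM190PT groups without drug were the highest of the 8 and the SUM149PT drug groups the lowest, and the 4 between overlapped along their order.

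SOCS3, the feedback inhibitor, passed in 1 of the 4 comparisons of CG-1521. SUM190PT gave 5.44, 5.39 and 5.33 in the combination, against 4.89, 4.58 and 5.00 in estradiol alone. The groups did not overlap, and the difference was 0.56 (SE 0.120, 1.48-fold, adjusted p = 0.00546). The estradiol arrays averaged 4.82 and the vehicle arrays 5.06 in that line, and SOCS3 lay among the dimmest 50% of genes. For the combination against estradiol the median over all genes was 0.071, and −0.059 without that dimmest part. The part of this shift in the SOCS3 difference was not tested. Against vehicle (5.09, 4.96 and 5.13) CG-1521 alone gave 5.39, 5.19 and 5.32, again with no overlap, and the difference of 0.24 did not pass (95% interval −0.022 to 0.50, adjusted p = 0.199). SUM149PT gave 5.31, 5.73 and 5.32 with CG-1521, against 5.43, 5.48 and 5.38 with vehicle. It gave 5.43, 5.44 and 5.45 in the combination, against 5.38, 5.22 and 5.43 in estradiol alone. The second CG-1521 array alone stood high, and the differences were 0.024 (95% interval −0.19 to 0.24, adjusted p = 0.894) and 0.10 (95% interval −0.12 to 0.32, adjusted p = 0.491). Over the 8 groups SOCS3 overlapped from the highest group down to SUM190PT with CG-1521, and both SUM190PT groups without drug lay below.

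The effect of CG-1521 in the presence of estradiol was compared in the same way. Of the 9 genes, 7 passed in SUM149PT between the combination and estradiol alone, 5 higher and 2 lower, where 36.9% of all genes passed, 16.5% upward and 20.4% downward. In SUM190PT 4 passed, all 4 higher (LIF, IL6R, OSMR and SOCS3), where 25.7% of all genes passed, 12.5% upward and 13.2% downward. These shares depend on the scaling: 3031 genes were higher and 3760 lower in SUM149PT, against 2252 and 4377 after median centring, and 2306 and 2426 in SUM190PT, against 1424 and 3020. No difference of the 9 genes that passed changed sign under that or the other settings tried. The comparisons with vehicle and with estradiol share no array, but they share one estimate of the spread in each line. In SUM190PT same-numbered arrays of estradiol and vehicle, and of the combination and CG-1521, also deviated together. The comparisons are therefore not independent.

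**Figure D2:**
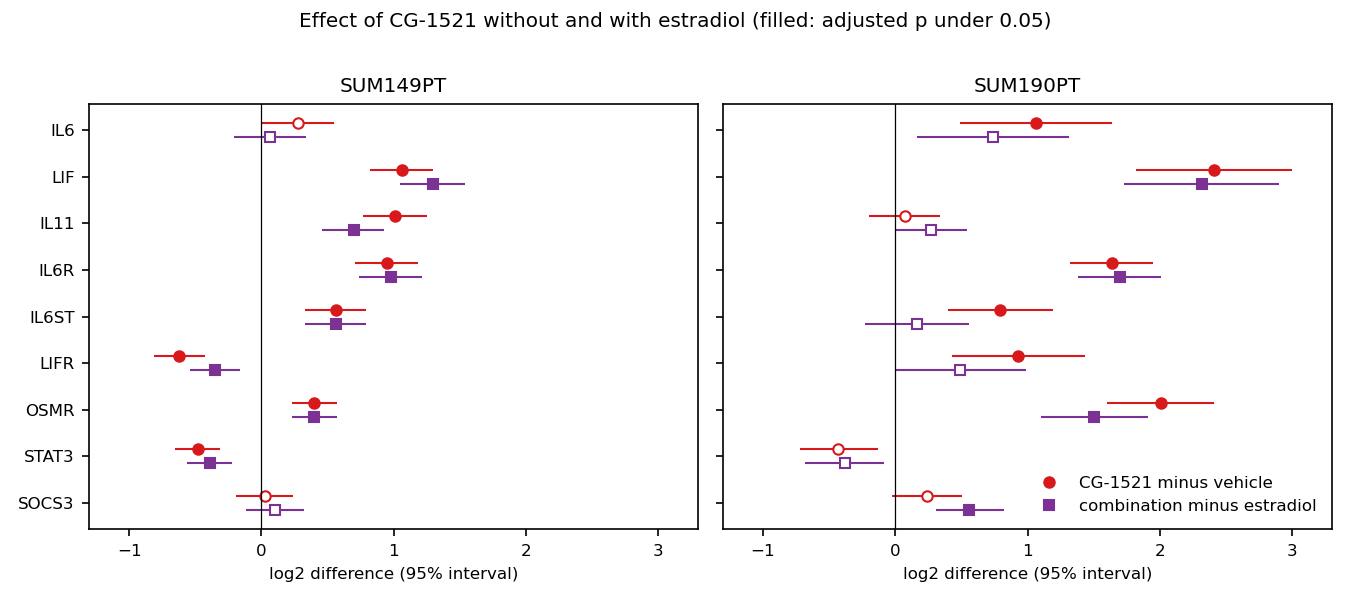
Log2 difference (x axis) with its 95% interval for each gene, in CG-1521 minus vehicle (red circles) and combination minus estradiol (purple squares), for each line; filled symbols passed at an adjusted p under 0.05. LIF, IL6R and OSMR lie right of 0 in every comparison, LIFR, whose signal was low, lies on opposite sides in the lines, and STAT3 lies left of 0.

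Estradiol was compared with vehicle to ask what the hormone did alone in these lines. None of the 9 genes passed in SUM149PT, where 0% of all genes passed and 845 (4.59%) had an unadjusted p under 0.05. There 2 of the 9 had such a p, LIFR at −0.25 (95% interval −0.44 to −0.059) and LIF at −0.25 (95% interval −0.49 to −0.005). None passed in SUM190PT either, where 0.00543% of all genes passed and 4531 (24.6%) had an unadjusted p under 0.05. In that line 3 of the 9 had such a p. They were IL6ST at 0.53 (SE 0.181, adjusted p = 0.111), OSMR at 0.49 (SE 0.188, adjusted p = 0.142) and IL11 at −0.29 (SE 0.124, adjusted p = 0.174). LIFR at 0.45 (SE 0.231, adjusted p = 0.25) and SOCS3 at −0.24 (SE 0.120, adjusted p = 0.235) did not. Estradiol and vehicle arrays of the same number in SUM190PT deviated together (correlations of 0.443, 0.229 and 0.729). With the replicate number as a block within the arrays without drug, IL6ST (adjusted p = 0.0406), LIFR (adjusted p = 0.0319) and OSMR (adjusted p = 0.025) passed at the same values, in a fit where 17.2% of all genes passed. The combination against CG-1521 alone showed 0 of 9 genes in each line and 0% of all genes. There 1156 genes (6.28%) in SUM149PT and 889 (4.83%) in SUM190PT had an unadjusted p under 0.05, none of the 9 among them, and the 9 differences lay between −0.21 (IL6) and 0.11 (IL6R) in SUM149PT and between −0.15 (LIF) and 0.088 (SOCS3) in SUM190PT.

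The lines also differed before any drug. In vehicle 7 of the 9 genes passed between SUM149PT and SUM190PT, 5 higher in SUM149PT and 2 lower, where 46.7% of all genes passed, 24.5% upward and 22.1% downward. OSMR, with the values given above, was 4.67-fold higher in SUM149PT (2.22, SE 0.148, adjusted p = 1.63e-11) and IL6 2.26-fold higher (1.18, SE 0.223, adjusted p = 0.000108), both without overlap. IL6ST was higher by 0.57 (adjusted p = 0.00407) and SOCS3 by 0.37 (adjusted p = 0.009). IL11 was higher by 0.35 (adjusted p = 0.0209), a call lost on leaving out replicate 2 or 3 of SUM149PT or replicate 1 or 2 of SUM190PT (0.26 to 0.33, adjusted p of 0.0612 to 0.127). IL6R was 3.63-fold lower in SUM149PT (−1.86, SE 0.133, adjusted p = 5.37e-11) and STAT3 1.57-fold lower (−0.65, adjusted p = 3.04e-05). LIF at −0.36 (adjusted p = 0.193) and LIFR at 0.055 (95% interval −0.33 to 0.43, adjusted p = 0.844) did not pass, and their arrays overlapped. On the vehicle arrays basal markers were high in SUM149PT (mean of 3 genes 9.58 to 9.68, against 5.84 to 6.42 in SUM190PT). Luminal markers were low there (mean of 4 genes 6.19 to 6.28, against 10.57 to 10.83). The part of both marker lists in these differences was not tested.

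The response to CG-1521 itself differed between the lines for 5 of the 9 genes, 1 larger and 4 smaller in SUM149PT, where 20.6% of all genes passed, 9.01% upward and 11.6% downward. The difference of responses, SUM149PT minus SUM190PT, was −1.61 for OSMR (SE 0.209, adjusted p = 1.12e-05), −1.55 for LIFR (SE 0.259, adjusted p = 0.000185), −1.35 for LIF (SE 0.313, adjusted p = 0.0035) and −0.69 for IL6R (SE 0.187, adjusted p = 0.0111). IL11 went the other way at 0.94 (SE 0.170, adjusted p = 0.000418). Without the SUM190PT arrays that stood apart the 5 values were −1.58, −1.50, −1.20, −0.76 and 0.85. IL6 did not pass (−0.78, SE 0.315, adjusted p = 0.0828), nor did IL6ST (−0.23), SOCS3 (−0.21) or STAT3 (−0.052, 95% interval −0.38 to 0.27). SUM149PT received the higher dose of CG-1521 and was grown with serum, and the part of either was not tested.

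**Figure D3:**
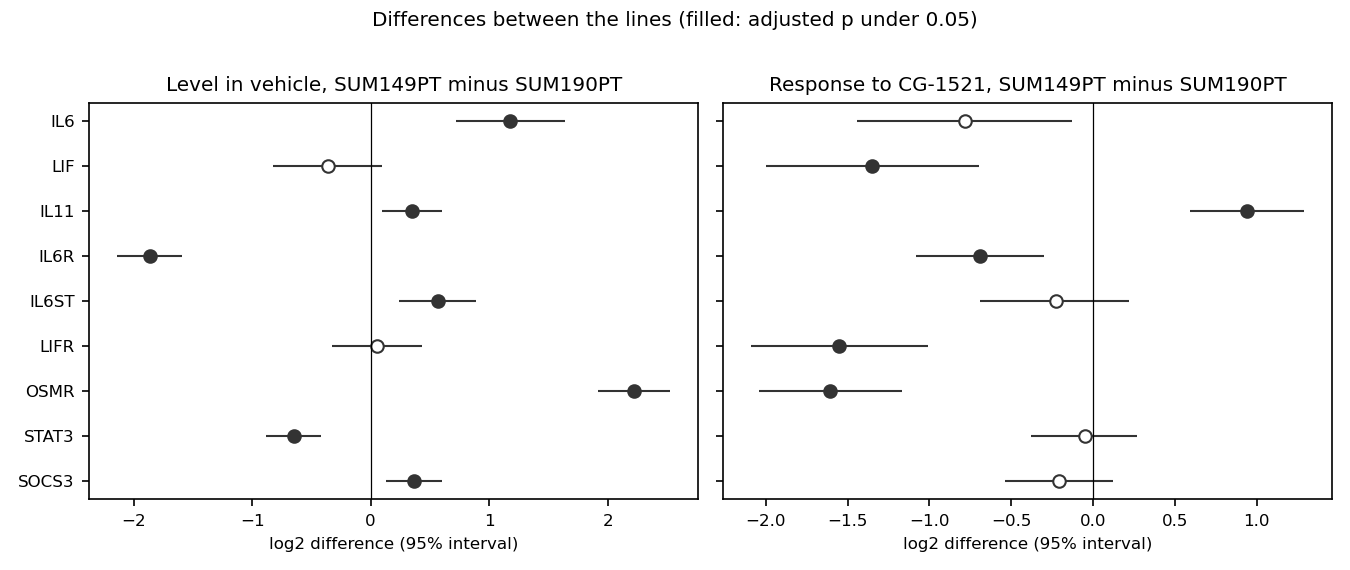
Log2 difference with its 95% interval (x axis) between SUM149PT and SUM190PT for each gene, in the vehicle level (left) and in the response to CG-1521 (right); filled points passed at an adjusted p under 0.05. OSMR is 2.22 higher in SUM149PT in vehicle and its response is −1.61 there relative to SUM190PT.

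In some groups of both lines, though not in all, a single array was the highest or lowest for most of the genes. In the SUM149PT CG-1521 group each array was the highest for 3 of the 9. In the SUM190PT CG-1521 group replicate 2 was the lowest for all 9 genes, and over all 18417 genes it was the lowest for 30.7%. Replicate 3 of that group was the highest for 6 of the 9 and for 28.9% of all genes. In the SUM190PT combination replicate 3 was the highest for 6 of the 9 (33.9% of all genes) and replicate 2 the lowest for 5 (34.1%). IL6R and SOCS3 ran the other way there, with replicate 1 highest and replicate 3 lowest. Replicate 1 of the SUM149PT combination was the lowest for 7 of the 9 (32.4% of all genes), replicate 3 of SUM190PT estradiol the highest for 7 (43.5%) and replicate 3 of SUM149PT vehicle the highest for 6 (29.8%). Replicate 2 of the SUM190PT CG-1521 group correlated with its group at 0.9884 on average, and each of the other two at 0.9893. Leaving it out kept every call of CG-1521 against vehicle in that line.

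**Figure D4:**
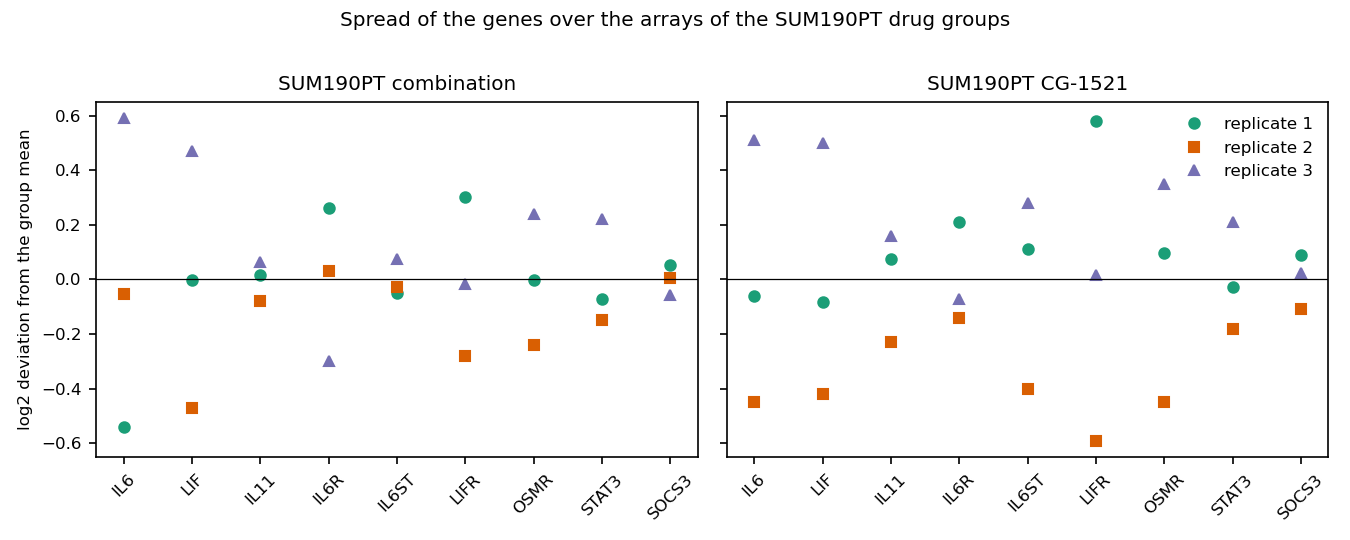
Deviation of each array from its group mean (log2, y axis) for the 9 genes in the SUM190PT combination (left) and CG-1521 (right) groups; symbols mark the replicates. The second CG-1521 array lies below 0 for every gene, and the third array lies highest for IL6 and LIF in both groups.

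Pearson correlations over the 24 arrays, after each line's mean was subtracted, describe which genes ran alongside these. The points share the array, the treatment groups and the drug, so these are descriptions only. Among all genes those most like LIF were IL1RN (0.980), OPTN (0.975) and TNIP1 (0.974). Those most like IL11 were ARL14 (0.921), HYOU1 (0.920) and TBC1D17 (0.916), and those most like IL6 were RSAD2 (0.894), PARP14 (0.889) and PLIN2 (0.889). For SOCS3 they were CCDC17 (0.875), WDR24 (0.846) and LOC100132686 (0.835). Among the 9 genes themselves LIF ran with IL6R (0.93) and OSMR (0.92), STAT3 ran against IL6R (−0.85), and LIFR and STAT3 correlated at −0.04.

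Among further ligands, receptors, kinases, carriers and inhibitors, some rose and some fell with CG-1521 in SUM149PT, and only falls passed against vehicle in SUM190PT. The counts against vehicle stand beside 34.3% of all genes passed in SUM149PT and 16.6% in SUM190PT. Of 8 measured further ligands and receptors, 0 rose and 1 fell in SUM149PT, which was IL27RA, the receptor for interleukin-27 (−1.46, SE 0.102, adjusted p = 2.08e-08). Its mean was 6.37 ± 0.14 with CG-1521 and 7.83 ± 0.09 with vehicle (SD, n = 3). In SUM190PT 0 of these 8 passed, and none had an unadjusted p under 0.05. Of 8 kinases and signal carriers, 2 rose and 2 fell in SUM149PT, the largest being JAK1 (0.43, SE 0.086) and TYK2 (−0.42, SE 0.115), both receptor-bound kinases, and in SUM190PT 1 fell, the kinase JAK2 (−0.45, SE 0.136). Of 6 further inhibitors, 2 rose and 2 fell in SUM149PT, with SOCS1, a relative of SOCS3 that blocks Janus kinases, at 0.50 (SE 0.130) and the phosphatase PTPN2 at −0.55 (SE 0.092). In SUM190PT 1 inhibitor fell, CISH, another relative of SOCS3 (−0.66, SE 0.173). The combination against estradiol alone gave other counts. In SUM149PT, where 36.9% of all genes passed, 1 ligand or receptor rose and 1 fell, 2 kinases or carriers rose and 2 fell, and 0 inhibitors rose and 2 fell. In SUM190PT, where 25.7% passed, 3 ligands or receptors rose and 0 fell, 0 kinases or carriers rose and 3 fell, and 1 inhibitor rose and 1 fell. The median of the 8 ligands and receptors was 0.18 in that comparison. Against vehicle in the same line it was −0.11 for CG-1521 alone and −0.16 for estradiol alone.

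Genes known as STAT3 targets split in both lines. Of 25 measured, 5 rose and 6 fell in SUM149PT (median 0.037, against −0.002 over all genes), where 34.3% of all genes passed. In SUM190PT 2 rose and 4 fell (median 0.020, against −0.048), where 16.6% of all genes passed. In the combination against estradiol alone, 7 rose and 6 fell in SUM149PT, where 36.9% of all genes passed, and 6 rose and 4 fell in SUM190PT, where 25.7% passed. The largest rise in SUM149PT was in FOSL1, a subunit of AP-1 (1.01, SE 0.140, adjusted p = 2.91e-05), and the largest fall in SAA2, an acute-phase protein (−1.63, SE 0.149, adjusted p = 3.95e-07). SAA2 averaged 5.77 ± 0.23 with CG-1521 and 7.40 ± 0.06 with vehicle (SD, n = 3). In SUM190PT the largest rise was in SERPINA3, an acute-phase protease inhibitor (1.31, SE 0.332, adjusted p = 0.0177), and the largest falls were in FGB and FGG, chains of fibrinogen, at −3.47 each (SE 0.489 and 0.419). FGB averaged 4.14 ± 0.26 with CG-1521 and 7.61 ± 1.02 with vehicle, and FGG averaged 5.61 ± 0.11 with CG-1521 and 9.08 ± 0.74 with vehicle (SD, n = 3). The response differed between the lines for 9 of the 25 targets, where it differed for 20.6% of all genes. SERPINA3, with a rise in SUM190PT and a fall in SUM149PT (−1.28, SE 0.245, adjusted p = 0.00059), had a difference of −2.59 (SE 0.452, adjusted p = 0.00029). Some cell type markers also passed for CG-1521 against vehicle, beside 34.3% of all genes in SUM149PT and 16.6% in SUM190PT. Of 4 luminal markers 3 fell in SUM190PT (SPDEF −1.84, GATA3 −1.46 and ERBB2 −0.52; median of the 4, −0.99), while in SUM149PT AGR2 rose (3.88) and GATA3 fell (−0.92). Of 3 basal markers LAMB3 rose in both lines, by 1.75 in SUM149PT and 1.21 in SUM190PT. Of 5 epithelial markers KRT19 (−0.59) and KRT8 (−0.51) fell in SUM190PT and CDH1 (0.48) rose in SUM149PT. Of the 7 fibroblast markers 1 fell in SUM149PT (DCN, −0.96) and of the 4 leukocyte markers 1 (CD14, −0.29), with none of either in SUM190PT, and 0 of 4 endothelial markers passed in either line. The part of these markers in the results was not tested.

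**Figure D5:**
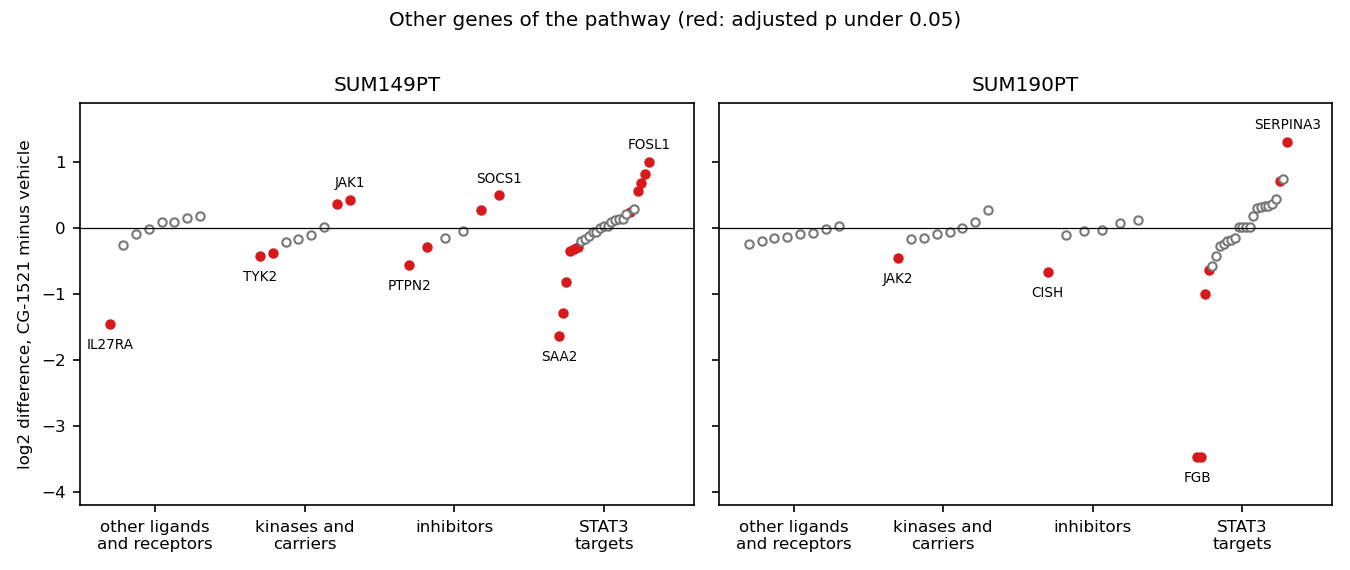
Log2 difference between CG-1521 and vehicle (y axis) for each measured gene of 4 lists in SUM149PT and SUM190PT, sorted within a list; red points passed at an adjusted p under 0.05. Points lie on both sides of 0 in most lists, from −3.47 for the fibrinogen chains to 1.31 for SERPINA3 in SUM190PT.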

How the data were processed

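Per the labels' protocols, total RNA was purified on columns, amplified with a kit for small amounts and hybridized to Affymetrix Human Gene 1.0 ST arrays. Per the submitters' processing notes the authors ran RMA within Affymetrix Expression Console (versions not stated). RMA corrects background, normalizes by quantiles and summarizes probes, so a global shift in RNA is removed. The deposited values are log2 expression for 33297 probe sets, with no detection call. Joint or separate normalization of the lines is not given in the sources used here. All 24 arrays were used, and the number of unused columns was 0.

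Of 21214 annotated probe sets 19460 had a single symbol and 1754 had several, and the probe set with the highest mean stood for each of 18417 genes. Groups came from the labels. Differences were fitted with limma 3.58.1 in R 4.3.3 (statmod 1.5.0, two-sided, empirical Bayes), over the 12 arrays of a line, or over 24 for differences between lines, and adjusted by Benjamini-Hochberg over all 18417 genes, for 10 contrasts. The script was tested on simulated data with 200 changed genes. Tables and plots used Python 3.11.15 with numpy 2.4.6, matplotlib 3.10.9 and pandas 2.3.3. Intervals are at 95%, and the number of arrays limits the precision.

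Per the series design the 3 arrays came from independent experiments. Whether replicate numbers pair arrays was checked by correlating same-numbered deviations from group means across genes. All 3 pairs exceeded 0.1 only in SUM190PT, for estradiol against vehicle and for the combination against CG-1521 (0.518, 0.434 and 0.502). A block entered as an alternative.

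The 9 genes, the pathway and marker lists and the tests were chosen with earlier results of these data known. Of each list the counts in each direction are given, and the largest rise and fall that passed are named. A few listed genes are not reported here. Alternatives were the replicate block, other sets of arrays in the fit, other normalizations, removal of the dimmest 50% of genes, other choices of probe sets, other variance models, array weights and leaving out each array. Promoter windows came from RefSeq tables of GRCh38.p14.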

Additional observations from a re-analysis of the deposited data

Results flagged for a closer look

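A pattern that stands out is the difference in response to CG-1521 between the lines, tested as an interaction in limma over 24 arrays with Benjamini-Hochberg adjustment, SUM149PT minus SUM190PT. OSMR differed by −1.61, LIFR by −1.55, LIF by −1.35 and IL6R by −0.69, each with the lower response in SUM149PT. IL11 differed by 0.94, with the higher response in SUM149PT. LIFR is the gene of these whose 3 drug arrays lay below vehicle in SUM149PT and above it in SUM190PT. The lines differed in dose and in serum as well, and the part of either was not tested.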

How the results depend on the processing

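Of 90 differences (9 genes in 10 contrasts), 36 passed, 32 of them under every alternative that tested them, and 4 were lost under at least 1. Those 4 were IL6 and LIFR in SUM190PT CG-1521 against vehicle, LIFR in the SUM149PT combination against estradiol, and IL11 between the lines in vehicle. No called value changed sign. Of 54 that did not pass, 9 passed under at least 1 alternative, and the cause was not tested. With all 24 arrays in one fit 38.3% of all genes passed for the SUM190PT combination against estradiol, in place of 25.7%. The count of the 9 genes there was 7 in place of 4. For SUM190PT estradiol against vehicle it was 2 in that fit, 1 with array weights, 3 with a replicate block per drug arm (chosen after seeing the data) and 0 to 1 when single arrays were left out, in place of 0. The replicate block over all 12 arrays gave 0 there, and STAT3 passed with it in SUM190PT CG-1521 against vehicle (−0.43, adjusted p = 0.0191), as did IL6 in SUM149PT (0.28, adjusted p = 0.0378). With it IL6 (0.74, adjusted p = 0.0263) and STAT3 (−0.38, adjusted p = 0.0246) also passed for the SUM190PT combination against estradiol, and IL6 passed in the response difference (−0.78, adjusted p = 0.0327). Genes called for SUM190PT estradiol against vehicle moved from 1 to 519 with the replicate block, 2990 with all 24 arrays, 3079 with array weights, 649 with all probe sets tested and 2261 without vehicle replicate 1. For SUM190PT CG-1521 against vehicle they moved from 3053 to 5070 with all 24 arrays and to 1567 or 1878 without CG-1521 replicate 1 or vehicle replicate 2. For the SUM190PT combination against estradiol they moved from 4732 to 7203 with array weights, to 2605 without estradiol replicate 2, and to 2679 or 3063 without combination replicate 1 or 3.

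The arrays carry no detection call. IL6, LIFR and SOCS3 lay among the dimmest 50% of genes, so that 6 of the 9 genes were tested without these. Of those 6, 6 passed in SUM149PT CG-1521 against vehicle, where 59.2% of the genes kept passed. In SUM190PT 5 passed, where 29% of the genes kept passed.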

Other observations

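Oncostatin M, the ligand of OSMR, is encoded by OSM, which was higher in the combination than in estradiol alone in both lines, by 0.27 in SUM149PT (limma, Benjamini-Hochberg adjusted p = 0.0216) and 0.39 in SUM190PT (adjusted p = 0.014). Against vehicle CG-1521 alone gave OSM differences of 0.090 (adjusted p = 0.473) in SUM149PT and −0.010 (adjusted p = 0.96) in SUM190PT, which did not pass. The signal of OSM was low, with group means from 4.23 (SUM190PT estradiol) to 4.78 (SUM149PT combination). For the combination against estradiol the median over all genes was 0.033 in SUM149PT and 0.071 in SUM190PT. Without the dimmest 50% of genes it was −0.059 in each line, and the part of this shift in the OSM differences was not tested. In SUM190PT SOCS1 averaged 6.89 ± 0.19 in the combination and 6.17 ± 0.16 in estradiol alone (SD, n = 3), a difference of 0.72 (SE 0.166, limma adjusted p = 0.00829). It averaged 6.85 ± 0.22 with CG-1521 alone and 6.88 ± 0.29 with vehicle (SD, n = 3), a difference of −0.036 (limma adjusted p = 0.907), so that estradiol alone was the lowest of the 4 groups. ICAM1, an adhesion molecule, averaged 6.55 ± 0.15 in the combination and 5.73 ± 0.06 in estradiol alone in that line (SD, n = 3), a difference of 0.81 (SE 0.190, limma adjusted p = 0.00907). With CG-1521 alone it averaged 6.09 ± 0.34 and with vehicle 6.07 ± 0.37 (SD, n = 3), a difference of 0.023 (limma adjusted p = 0.952). MYC, a growth regulator on the STAT3 target list, fell with CG-1521 in SUM149PT (−0.35, adjusted p = 0.00284) and rose in SUM190PT (0.72, adjusted p = 0.00255), and the difference of these responses was −1.07 (SE 0.150, adjusted p = 2.75e-05). These genes were chosen after their values were seen.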
